A study of Mus musculus with 4 samples.

Results

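The lymphoid chemokines Cxcl13, Ccl19 and Ccl21a and their receptors Cxcr5 and Ccr7 were followed through the stromal vascular fraction of gonadal fat from aged mice, where each ligand was carried by a different kind of stromal cell. The members were taken by symbol from the gene table, and the 5 genes accounted for 7 of its 31054 entries because Ccl19 and Ccl21a are each listed a second time, on scaffolds outside the chromosomes. Those second entries held 0 UMIs of Ccl19 and 4 UMIs of Ccl21a in the kept cells and were added to the first. A UMI, or unique molecular identifier, is the count of 1 captured RNA molecule, and levels are given below as CPM, the UMIs of a gene per 1000000 UMIs of the cells concerned.

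All animals were male, 18 months old and of the genotype p16-CreERT2/R26-LSL-tdTomato, and all received tamoxifen daily and were killed 2 weeks later. In these mice the p16 (Cdkn2a) promoter drives a tamoxifen-dependent Cre that switches on the red reporter tdTomato for good, so Tom+ marks a cell that had an active p16 promoter when the drug was given, whether or not it still transcribed the gene at collection. Adipose cells freed by Liberase were sorted on CD45, the surface protein of blood-derived cells, and on Tom, which gave a CD45- pair and a CD45+ pair of libraries, each with 1 library labelled Tom+ and 1 labelled Tom-. Where 4 values follow each other, they are those of the CD45- pair and then of the CD45+ pair, with Tom+ first in both. How many animals each library pooled was not given in the sources used here.

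With 1 library per sort there was no replicate, and no test was made. Every value compares single libraries, and all intervals are 95% exact intervals (Poisson for levels and their ratios, binomial for shares) that cover counting error only. The 4 libraries kept 4008, 3908, 1950 and 4632 cells, 14498 in all, with median UMIs per cell between 18412 and 19859.5. tdTomato separated the Tom sorts, at 711 and 717 CPM in the Tom+ libraries against 15.8 and 19.5 CPM in the Tom- libraries. The CD45 labels did not separate the libraries in the same way. Ptprc, which encodes CD45, reached 217, 156, 223 and 188 CPM, and all 4 libraries held both stromal and blood-derived classes, so the CD45 words are used below only as the name of a library. Between 1 and 19 kept cell barcodes were shared by any pair of libraries, and 100 kept cells were concerned.

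Cxcl13, Ccl19 and Ccl21a are homeostatic chemokines, small secreted proteins that place lymphocytes inside lymph nodes, spleen and the lymphoid clusters of fat. Cxcl13 draws B cells and follicular helper T cells through the receptor Cxcr5, whereas Ccl19 and Ccl21a draw naive T cells, B cells and mature dendritic cells through Ccr7. In lymphoid organs Cxcl13 comes from follicular stromal cells, Ccl19 from fibroblastic reticular cells, and Ccl21a from those cells and from lymphatic endothelium. Lymphotoxin signalling through non-canonical NF-kB sustains these ligands in the follicular and reticular stromal cells of such organs.

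In the GRCm38 assembly, the build behind the mm10 files, Cxcl13 (ENSMUSG00000023078) lies at chr5:95956951-95961068 on the plus strand. Ccl19 (ENSMUSG00000071005) at chr4:42754525-42756577 and Ccl21a (ENSMUSG00000094686) at chr4:42772860-42773993 are neighbours on the minus strand. Cxcr5 (ENSMUSG00000047880) lies at chr9:44511787-44561877 and Ccr7 (ENSMUSG00000037944) at chr11:99144196-99155077, both on the minus strand. The 250 bases before the RefSeq start of each ligand (GRCm38.p6, written 5′ to 3′ on the strand of the gene) are shown because the ligands had different source cells. They lie outside the coding sequence, at chr5:95956689-95956938 for Cxcl13, chr4:42756366-42756615 for Ccl19 and chr4:42773992-42774241 for Ccl21a. The RefSeq start of Ccl19 lies inside the gene span given above, so most of its window falls within that span and not upstream of it. Capitals mark matches to the motifs named after them.

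Cxcl13: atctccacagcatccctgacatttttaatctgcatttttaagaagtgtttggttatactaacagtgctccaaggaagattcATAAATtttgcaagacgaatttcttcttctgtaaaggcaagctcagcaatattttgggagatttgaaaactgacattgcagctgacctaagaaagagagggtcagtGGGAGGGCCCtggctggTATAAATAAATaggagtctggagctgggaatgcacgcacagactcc

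Ccl19: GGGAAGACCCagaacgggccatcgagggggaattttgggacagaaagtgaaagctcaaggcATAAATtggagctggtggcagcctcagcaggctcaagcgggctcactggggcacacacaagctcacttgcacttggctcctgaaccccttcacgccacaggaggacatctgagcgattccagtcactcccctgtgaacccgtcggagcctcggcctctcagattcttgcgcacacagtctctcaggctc

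Ccl21a: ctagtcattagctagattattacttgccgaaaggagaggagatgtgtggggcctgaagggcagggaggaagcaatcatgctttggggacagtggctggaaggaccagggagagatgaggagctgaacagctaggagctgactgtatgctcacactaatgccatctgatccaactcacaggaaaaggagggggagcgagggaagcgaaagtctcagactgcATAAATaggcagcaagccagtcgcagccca

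Both strands were searched for 4 motifs. GGGNNNNNCC, a loose form of the NF-kB site, was found once before Cxcl13 and once before Ccl19, each time on both strands at the same place, and not in the window of Ccl21a. It occurs in 45.8% of 32851 promoters of the same length. The TATA form TATAAA (12.4% of promoters) was found before Cxcl13 alone, 46 bases from the start, and overlaps the first of 2 overlapping matches to ATAAAT (12.5% of promoters) there. ATAAAT was found in the windows of all 3 ligands, 30 bases from the start in Ccl21a, and the match of Ccl19 lies within the span of that gene. The STAT form TTCNNNGAA (7.02% of promoters) was in none of the 3 windows. Such matches describe the letters of these windows only.

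Ccl21a has near-identical copies in the mouse genome, which bears on how its reads were counted. Ccl21b, Gm10591, Gm13304 and Gm21541 each differ from Ccl21a by 2 bases of 399 in the coding sequence, T84A and C194T, counted from 1 at the first coding base with the Ccl21a base first. The stretch from base 72 to base 206 is shown for Ccl21a and Ccl21b, with the 2 differing bases in capitals.

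Ccl21a: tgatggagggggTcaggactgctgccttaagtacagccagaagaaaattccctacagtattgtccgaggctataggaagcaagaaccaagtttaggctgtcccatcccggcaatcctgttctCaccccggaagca

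Ccl21b: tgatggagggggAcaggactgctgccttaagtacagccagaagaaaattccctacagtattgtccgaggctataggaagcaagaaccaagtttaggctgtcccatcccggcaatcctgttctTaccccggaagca

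The entries named Ccl21b and Ccl21c held 0 UMIs in every library, and Gm21541 held 1576 UMIs against 62908 for Ccl21a, or 39.9 Ccl21a UMIs for each Gm21541 UMI, and 99.1% of the Gm21541 UMIs lay in lymphatic endothelial-like cells. After the stop codon the annotated transcripts of Ccl21b and Gm10591 hold 3 bases, against 396 in Ccl21a. Those of Gm13304 and Gm21541 differ from Ccl21a at 3 positions there. These libraries read the 3′ end, so the 0 UMIs of Ccl21b do not show that it was silent. Reads that fall on identical sequence could not be assigned to 1 copy, so Ccl21a stands below for that group of genes.

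Over all cells, Ccl21a was far higher in the Tom+ libraries, Ccl19 and Ccr7 were lower there, and Cxcl13 and Cxcr5 differed less. Cxcl13 reached 141, 156, 147 and 244 CPM. Ccl19 reached 1.25, 11.0, 1.49 and 12.6 CPM, and Ccl21a reached 410, 12.7, 333 and 49.4 CPM. For both of these ligands the Tom+ libraries lay on one side of both Tom- libraries, and for Cxcl13 the CD45+ Tom- library stood above the rest. Cxcr5 was low throughout, at 1.80, 2.61, 1.90 and 3.07 CPM, and Ccr7 reached 12.7, 27.4, 9.96 and 30.5 CPM, again with both Tom+ libraries below both Tom- libraries.

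As log2 ratios of Tom+ over Tom-, Ccl21a differed by 5.02 (4.93 to 5.11) in the CD45- pair of libraries and by 2.75 in the CD45+ pair. Ccl19 differed by -3.14 (-3.42 to -2.87) and -3.08 (-3.44 to -2.73), and Ccr7 by -1.10 (-1.20 to -1.0) and -1.62 (-1.76 to -1.48). Cxcl13 differed by -0.15 (-0.19 to -0.12) and -0.74 (-0.77 to -0.70), and Cxcr5 by -0.53 (-0.83 to -0.24) and -0.69 (-1.04 to -0.35). In each pair 3 of the 5 genes were past 2-fold, 1 higher and 2 lower in Tom+. Among all genes with at least 10 UMIs in a pair, 33.1% were past 2-fold in the CD45- pair (8.91% higher and 24.2% lower in Tom+) and 31.6% in the CD45+ pair (7.63% higher and 24.0% lower). The median ratio over those genes was itself -0.44 and -0.47, so a gene at 0 on this scale stood above the median gene.

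The cells fell into 31 clusters, of which 21 could be named from marker genes in 13 classes and 10 kept a number because they carried markers of unrelated classes or too few of any. Neither the 5 genes nor the 35 genes of the pathway list used below took part in the clustering. Each ligand and each receptor had a leading class. Cluster 8 held 81.8% of all Cxcl13 UMIs, the progenitor-like class 93.8% of those of Ccl19 and the lymphatic endothelial-like class 98.6% of those of Ccl21a. B cell-like cells held 64.0% of the Cxcr5 UMIs, and dendritic-like, B cell-like and T cell-like cells together held 89.9% of those of Ccr7.

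**Figure D1:**
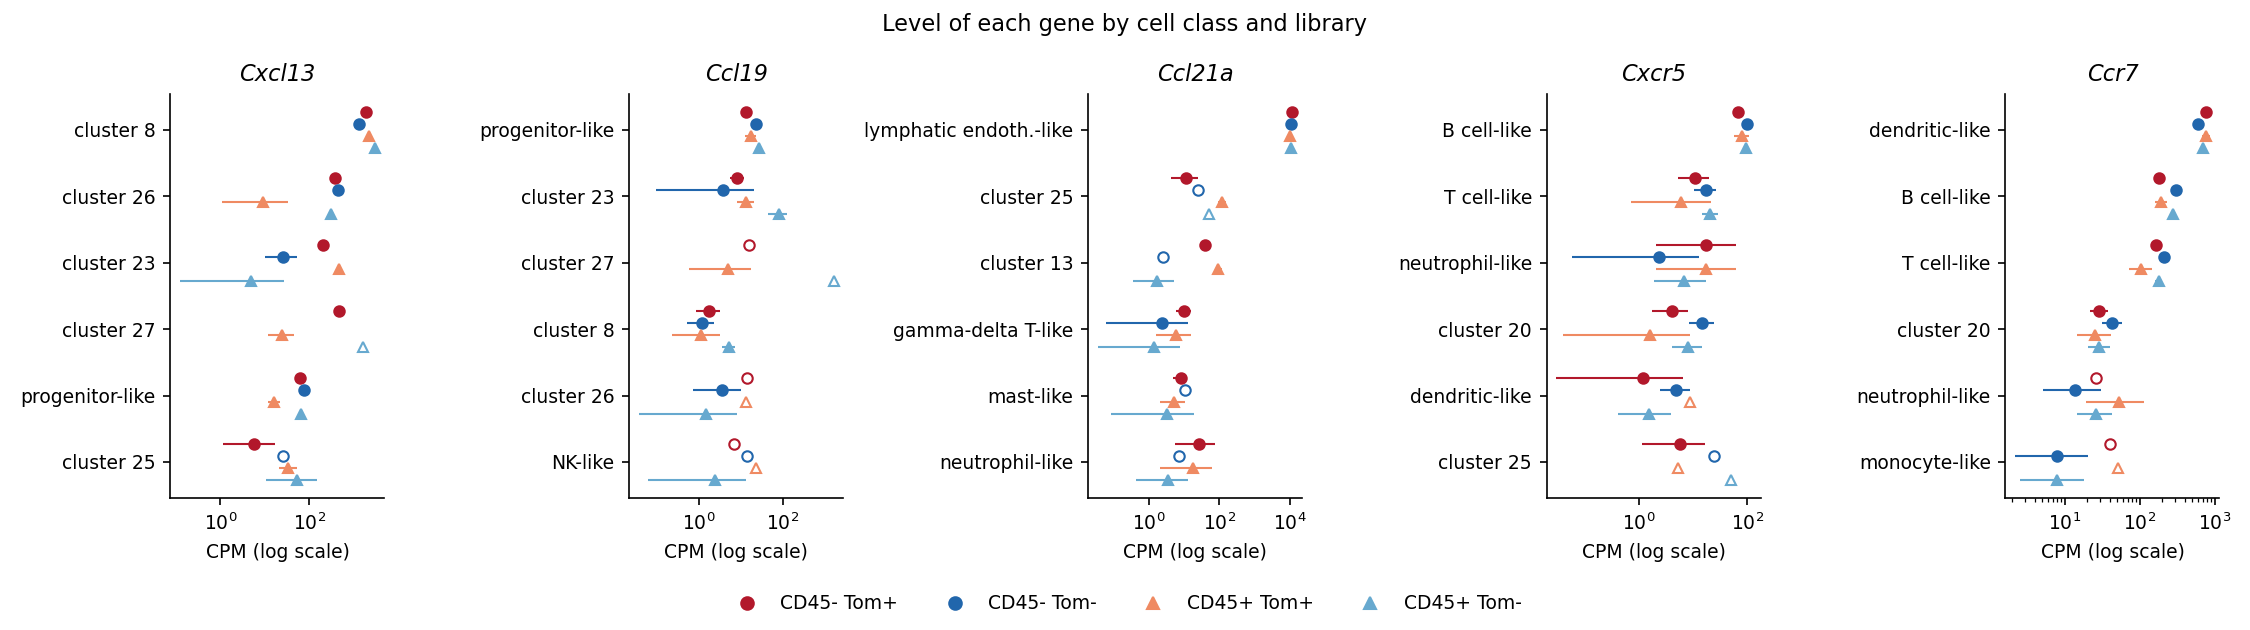
Level of each gene (CPM, log scale) in its leading cell classes, with 1 point per library and horizontal bars for the 95% Poisson interval. Open points mark libraries with 0 UMIs in a class and are drawn at the level of 3 counts, which for classes of few cells can be high. Cluster 8 stands above every other class for Cxcl13 in all 4 libraries and the lymphatic endothelial-like class does so for Ccl21a.

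Cxcl13 was concentrated in cluster 8, a stromal population of 711 cells that carried 7 of 8 mesothelial and 8 of 10 progenitor markers. It could therefore be named as neither. Its leading genes included Saa3, a serum amyloid of the acute-phase response, Clu, which encodes the chaperone clusterin, and Cxcl5, a neutrophil chemokine. Saa3 reached 8581 CPM there, against 2423 CPM in mesothelial-like and 357 CPM in progenitor-like cells. Upk3b, a marker of the mesothelial lining, stood at 98.5 CPM against 972 CPM in mesothelial-like and 1.91 CPM in progenitor-like cells. Pdgfra, a receptor of fibroblasts and progenitors, stood at 479 CPM against 168 and 475 CPM.

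In cluster 8 Cxcl13 reached 1879, 1330, 2179 and 2907 CPM, from 190, 230, 79 and 212 cells. The Tom+ library was higher in the CD45- pair, by 0.50 (0.46 to 0.54) on the log2 scale, and lower in the CD45+ pair, at -0.42 (-0.46 to -0.37). Both Tom- values thus enclosed both Tom+ values, and no common direction was seen. With the looser cell filter of 500 genes and 20% mitochondrial UMIs, the ratio of the CD45+ pair turned to 0.69.

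The shares of cluster 8 cells with at least 1 Cxcl13 UMI were 55.3%, 69.1%, 57.0% and 75%, so a smaller share of Tom+ cells carried the transcript in both pairs. After thinning every cell to 2000 UMIs the shares were 39.6%, 41.5%, 30.4% and 51.9%. The first 2 of these differed by less than the counting error. In plasma cell-like cells, which should lack the chemokine and had a median of 38921 UMIs against 32374 in cluster 8, 8.20% of cells held a Cxcl13 UMI, or 0.812% after thinning.

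The order of Cxcl13 levels over classes, pooled over libraries, ran from cluster 8 (2063 CPM) to cluster 26 (341), cluster 23 (252), cluster 27 (162) and the progenitor-like class (68.0), each step larger than the counting intervals. The value of cluster 27 rests on 58 cells, of which the CD45- Tom- library held none, and 1 cell of the CD45- Tom+ library held 87 of its 98 UMIs. Below these, cluster 25 (19.7), macrophage-like (18.6), mesothelial-like (18.4) and neutrophil-like cells (17.0) had overlapping intervals, and lymphatic endothelial-like cells stood last at 2.50 CPM. The mesothelial-like class, which shares most of the markers of cluster 8, was therefore over 100 times lower.

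Cluster 26 was a small population of 75 cells with 9 of 10 progenitor and 7 mesothelial markers and with markers of dividing cells. Its Cxcl13 level was 373, 447, 8.96 and 306 CPM, from 14, 26, 5 and 30 cells, and the low library was the one with 5 cells. In the progenitor-like class, the Pdgfra-bearing stromal cells that give rise to adipocytes, Cxcl13 reached 60.5, 76.0, 16.4 and 65.1 CPM. Most of it lay in cluster 3 of that class, at 266, 228, 62.7 and 207 CPM, whereas the other large progenitor-like clusters 1 and 2 stood at 7.71 and 6.18 CPM over all libraries.

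Single cells decided some of these values. Cluster 23 combined 8 of 10 progenitor with 5 plasma cell markers at a median of 52968 UMIs per cell, among them Jchain, the joining chain of secreted antibodies, at 15295 CPM against 255 CPM in the progenitor-like class. The part of doublets in that cluster was not tested. Its Cxcl13 stood at 205, 25.4, 454 and 4.90 CPM, and 1 cell with 602 UMIs held 74.6% of the first value while 1 cell with 566 UMIs held 85.8% of the third. With cluster 23 added to the progenitor-like class the Tom+ over Tom- log2 ratio of Cxcl13 was 0.63 and 1.39 in the CD45- and CD45+ pairs. Without the highest cell of each library it was -0.17 and -0.56. The progenitor-like class alone gave -0.33 and -1.99, or -0.54 and -2.25 without its highest cells. Within cluster 3 of that class the CD45- pair gave 0.22 (0.06 to 0.38), while Tom+ stayed lower in the CD45+ pair. The direction in the class thus rested on how cluster 23 was assigned, on single cells and, in the CD45- pair, on the mix of clusters.

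**Figure D2:**
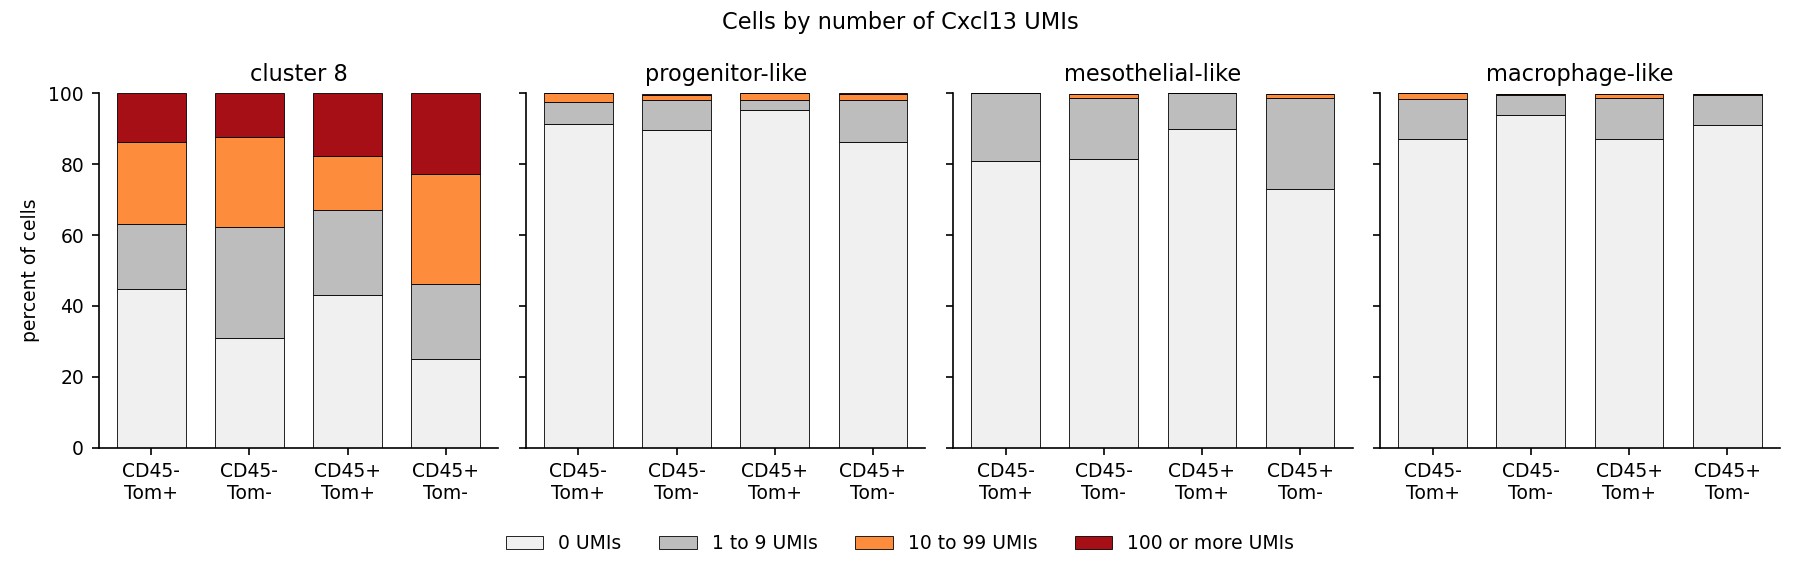
Percent of cells by number of Cxcl13 UMIs (none, 1 to 9, 10 to 99, 100 or more) in each library, for the classes named above the panels. In cluster 8 between 32.9% and 53.8% of the cells of a library held 10 or more UMIs, whereas in the progenitor-like class the share lay between 1.72% and 2.28%.

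The skew was the same in kind everywhere. The 1% of cells with most Cxcl13 held 83.2%, 67.9%, 90.1% and 76.8% of the UMIs of the 4 libraries, and the highest cells held 1815, 792, 1299 and 2440 UMIs. Over all libraries 424 cells with 10 or more UMIs, 2.92% of the kept cells, held 95.7% of the total. Of these, 297 were in cluster 8, 71 in the progenitor-like class, 23 in the macrophage-like class and 11 in cluster 23. The cluster 8 cells were not split into clean groups by this count: 243 had no UMI, 171 had 1 to 9, and 98 lay between 5 and 19.

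Macrophage-like cells were a minor source. Their cluster 9, led by Arg1 and Spp1, carried Cxcl13 at 69.5, 25.8, 86.9 and 56.2 CPM. The other large macrophage-like clusters 4 and 6 stood at 4.06 and 7.97 CPM over all libraries. Arg1 and Spp1 need not set cluster 9 apart from cluster 6. When doublets were removed at a larger share, both genes also led a macrophage-like cluster of 128, 293, 70 and 371 cells. Cluster 6 had 131, 283, 69 and 367 cells. In both pairs the Tom+ library was higher in cluster 9, by 1.43 (1.01 to 1.87) and 0.63 (0.33 to 0.94) on the log2 scale. In its Tom- libraries 1 cell each held 51.9% and 59.2% of the UMIs, which these counting intervals do not cover.

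Within cluster 8, cells with 10 or more Cxcl13 UMIs were set beside cells with none, library by library. Among 9821 genes with at least 10 UMIs in each library, 39 (0.397%) were at least 2-fold higher and 94 (0.957%) at least 2-fold lower in the Cxcl13-rich cells of all 4 libraries. Of the 8 mesothelial markers, 6 were among the lower ones (Msln, Upk3b, Upk1b, Krt19, Krt8 and Krt18), and Wt1 and Lrrn4 were not. Of the 9 progenitor markers tested, only Dpp4 was lower in all 4 libraries and none was higher.

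Krt19, a keratin of epithelial linings, was at 32.0, 66.7, 15.5 and 36.2 CPM in the Cxcl13-rich cells against 245, 426, 169 and 176 CPM in the cells without, so the groups did not overlap. Upk3b showed the same separation, at 30.6, 50.0, 28.3 and 29.4 CPM against 210, 197, 170 and 129 CPM. Wt1, a transcription factor of mesothelium, stood at 316, 450, 357 and 483 CPM against 456, 494, 400 and 444 CPM, with overlapping ranges.

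The pathway list, 35 genes of lymphotoxin signalling, stromal organisers and lymphocyte migration, had 15 members that could be compared in this way. Of these, only Ch25h was at least 2-fold higher in all 4 libraries, at 15.2, 12.5, 15.5 and 19.7 CPM against 2.38, 3.23, 0.927 and 0 CPM. The values without Cxcl13, from 85, 71, 34 and 53 cells, rest on few Ch25h UMIs, so the size of the difference is uncertain. The product of Ch25h is a step on the route to the oxysterol ligand of Gpr183, a receptor of B cells. Cyp7b1, the next enzyme of that route, was higher by 1.03, 0.77, 1.48 and 1.08 on the log2 scale, and Cxcl12, the ligand of Cxcr4, by 1.68, 1.96, 0.92 and 2.74. Vcam1, an adhesion molecule of lymphoid stroma, was higher by 0.40, 0.70, 0.94 and 0.57. For these last genes the sign was the same in the 4 libraries, but 1 or more fell short of 2-fold. They are examples from the 15, whose median log2 ratio was 0.23. The share of all genes with the same sign in the 4 libraries is not given here, so the shared sign sets these genes apart from no background.

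The genes with the largest smallest ratio over the 4 libraries included Ngfr, a receptor of nerve growth factor, Cxcl5, and S1pr3, a receptor of sphingosine-1-phosphate. Ngfr reached 42.4, 60.8, 36.5 and 56.2 CPM in the Cxcl13-rich cells against 2.77, 12.4, 2.78 and 13.4 CPM in the cells without. Cxcl5 reached 760, 812, 808 and 947 CPM against 155, 155, 46.4 and 230 CPM. On the lower side stood Angptl7, Hpgd, Kdr, Krt7 and Igfbp5, the last at 39.1, 83.0, 70.3 and 66.1 CPM against 351, 848, 410 and 498 CPM. The Cxcl13-rich cells were also deeper, with median UMIs per cell of 39956, 33425, 42505.5 and 36962 against 32445, 26301, 33885.5 and 23008, and the part of that depth in these differences was not tested.

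**Figure D3:**
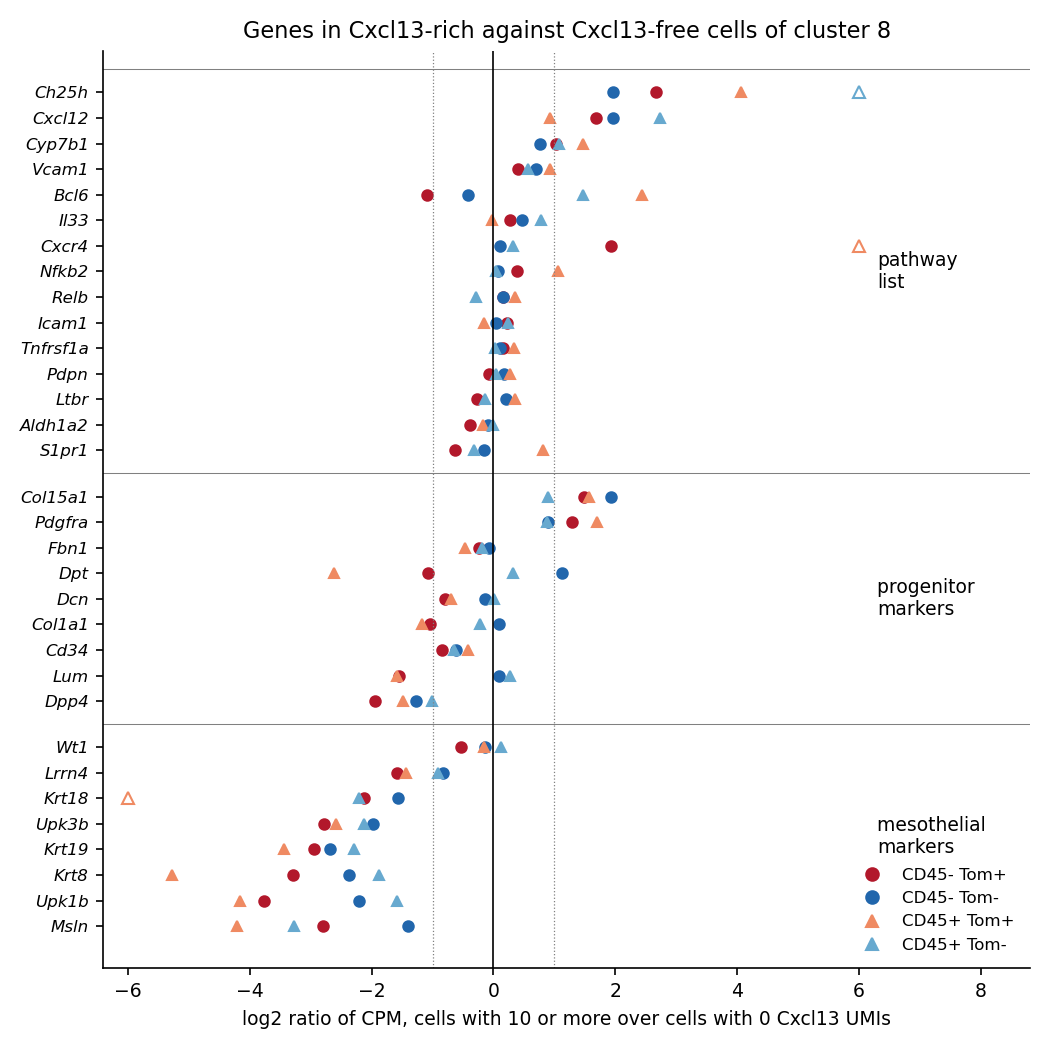
Log2 ratio of CPM between cells with 10 or more and cells with 0 Cxcl13 UMIs in cluster 8, with 1 symbol per library for each gene. Open symbols at the edge mark ratios with 0 UMIs on one side. Most mesothelial markers lie to the left of 0 in all 4 libraries, and Ch25h, Cxcl12 and Cyp7b1 lie to the right.

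Cxcl13 in lymphoid follicles is made by follicular dendritic cells, and their markers were read in cluster 8. Clu stood at 1849 CPM, Mfge8, a bridging protein for dying cells, at 80.7 CPM, Fcer2a at 0.699 CPM and Cr2 at 0.262 CPM, and Serpina1e had 0 UMIs. Clu was as broad as 1203 CPM in mesothelial-like cells and Mfge8 stood at 231 CPM in progenitor-like cells. Cr2 and Fcer2a, complement and IgE receptors of follicular dendritic cells and B cells, stood at 61.1 and 167 CPM in B cell-like cells. The 2 receptors were thus near 0 in the main Cxcl13 source.

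Cluster 8 also stood high for the gene behind the reporter. Cdkn2a, which encodes p16, reached 34.0, 27.2, 38.0 and 40.9 CPM there, in Tom+ and Tom- libraries alike. These 3′ counts are of the gene as a whole and do not single out its p16 transcript. Over classes, cluster 26 (37.6 CPM) and cluster 8 (34.6) had overlapping intervals and stood above cluster 17 (12.3) and lymphatic endothelial-like cells (11.8), and the progenitor-like class was at 5.92 CPM. tdTomato itself was 820 and 874 CPM in the Tom+ cells of cluster 8 and 10.2 and 12.9 CPM in its Tom- cells. The order of Cdkn2a levels in cluster 8 did not follow the Tom sort.

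Ccl19 was a gene of the progenitor-like class. It reached 13.2, 23, 16.8 and 26.2 CPM there, from 263, 1650, 106 and 1798 cells, and was lower in the Tom+ library of both pairs, by -0.80 (-1.15 to -0.47) and -0.64 (-1.10 to -0.21) on the log2 scale. These ratios were far smaller than those over all cells. Progenitor-like cells made up 6.56% and 5.44% of the Tom+ libraries and 42.2% and 38.8% of the Tom- libraries.

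After the progenitor-like class (23.7 CPM over all libraries) came cluster 23 (11.6), and then cluster 27, cluster 8 and cluster 26 at 3.31, 2.49 and 2.0 CPM with overlapping intervals. Ccl19 had 0 UMIs in the 772 B cell-like, 280 dendritic-like and 295 lymphatic endothelial-like cells. For B cell-like cells the 95% interval reached 0.638 CPM, and for dendritic-like cells 0.615 CPM. Macrophage-like cells held 5 UMIs in 2465 cells, or 0.203% of cells, against 28.8% of progenitor-like cells, at median depths of 19740 and 22704 UMIs.

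Inside the progenitor-like class, Ccl19 was highest in cluster 3 among the clusters of 50 or more cells, at 22.4, 37.6, 46.7 and 38.0 CPM. The Tom+ library was thus lower there in the CD45- pair only. In the CD45+ pair it was higher, from 26 Tom+ cells. Clusters 1 and 2 stood at 21.5 and 17.4 CPM over all libraries and cluster 22 at 1.32 CPM. Cluster 3 was thus the leading progenitor-like cluster for both Ccl19 and Cxcl13.

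The 2 ligands also met in the same cells. Progenitor-like cells with 10 or more Cxcl13 UMIs carried Ccl19 at 100, 98.1, 111 and 71.8 CPM, from 6, 32, 2 and 31 cells, against 10.7, 19.5, 13.4 and 24.7 CPM in progenitor-like cells without Cxcl13. The groups did not overlap in any library, although the Tom+ values rest on 19 and 9 UMIs. Of the 71 Cxcl13-rich progenitor-like cells, 67 lay in cluster 3, so the class-wide contrast also compares clusters. In cluster 3 alone the pooled values were 88.1 (76.1 to 102) against 30.5 (28.2 to 33.0) CPM. Intervals overlapped there in the CD45+ Tom+ library (50.9 to 211 against 25.3 to 59.9 CPM) and not in the other libraries. The Cxcl13-rich cells were deeper, with median UMIs per cell of 33584 against 25728. A Ccl19 UMI was seen in 73.1% of 67 against 36.0% of 806 cells, and after thinning in 4.48% against 4.59%. In cluster 8, where Cxcl13 was far higher, Ccl19 stood at 3.51 CPM in the cells with 10 or more Cxcl13 UMIs and at 0.588 CPM in those with none.

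Ccl21a was almost wholly a gene of lymphatic endothelial-like cells, the lining of lymph vessels marked by Prox1, Lyve1, Mmrn1 and Flt4. It stood at 11603, 10798, 9914 and 11138 CPM in this class, so that about 1 in 100 UMIs of these cells came from this gene, and the level moved little between libraries. The second place, cluster 25, had 57.4 CPM over all libraries. What differed was the number of cells: 181, 5, 88 and 21, or 4.52%, 0.128%, 4.51% and 0.453% of the 4 libraries.

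The 2 Tom- libraries had under 50 such cells, so no ratio within the class is given. Their Ccl21a content per cell ranged from 1615 to 30112 CPM in the CD45- Tom- library and from 522 to 34863 CPM in the CD45+ Tom- library, within the 0 to 38073 CPM of the CD45- Tom+ cells. The medians over cells were 10545, 17166, 7491 and 8598 CPM. tdTomato in these cells was 1440, 32.4, 1581 and 108 CPM. If doublets were removed at a larger share, set from all barcodes, only 1 and 0 of the Tom- cells stayed, and the all-cell ratios of Ccl21a were 8.19 and 8.40.

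Outside the lymphatic class, Ccl21a was found at low levels that followed the libraries rich in lymphatic cells. Macrophage-like cells held it at 5.04, 0.451, 3.63 and 0.995 CPM, in 11.2%, 0.877%, 7.38% and 2.05% of cells, beside the lymphatic shares just given. The part of free RNA from lymphatic cells in these low values was not tested.

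**Figure D4:**
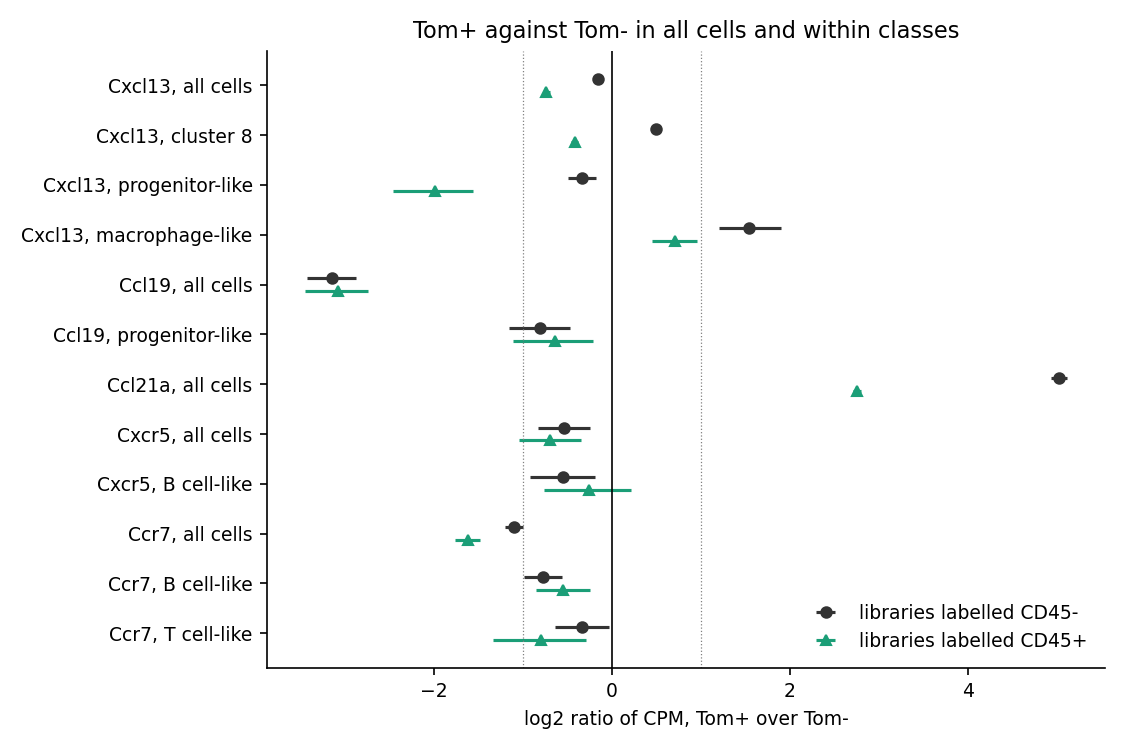
Log2 ratio of CPM, Tom+ over Tom-, over all cells and within classes that had at least 50 cells in both libraries, with 95% intervals from counting error. Circles are the libraries labelled CD45- and triangles those labelled CD45+, and dotted lines mark 2-fold. Cxcl13 in cluster 8 lies on opposite sides of 0 in the 2 pairs, and the ratios of Ccl19 are much closer to 0 within the progenitor-like class than over all cells.

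Cxcr5, the receptor of Cxcl13, marked B cell-like cells. It reached 68.3, 100, 79.4 and 95 CPM in them, with both Tom+ libraries below both Tom- libraries. The log2 ratio was -0.55 (-0.92 to -0.19) in the CD45- pair and -0.26 (-0.76 to 0.22) in the CD45+ pair, where the counting interval includes 0. A UMI was seen in 40.1%, 41.8%, 45.1% and 41.2% of these cells, against 0.498% of progenitor-like cells with nearly 4 times their depth.

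T cell-like cells came next, at 10.9, 17.1, 5.95 and 20.8 CPM from 10, 19, 2 and 39 UMIs. Their pooled level of 16.5 CPM overlapped in interval with neutrophil-like cells (7.27 CPM) and stood below B cell-like cells (86.9 CPM). Plasma cell-like cells, the antibody-secreting descendants of B cells, had 0.912 CPM.

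Ccr7, the receptor of Ccl19 and Ccl21a, was highest in dendritic-like cells at 773, 608, 763 and 694 CPM, from 41, 103, 16 and 120 cells. B cell-like cells followed at 180, 308, 193 and 282 CPM and T cell-like cells at 165, 208, 104 and 180 CPM, and pooled over libraries these 3 classes (676, 250 and 178 CPM) had intervals that did not overlap. In B cell-like cells the Tom+ library was lower in both pairs, by -0.77 (-0.99 to -0.56) and -0.55 (-0.86 to -0.25). In T cell-like cells the ratios were -0.34 (-0.64 to -0.03) and -0.79 (-1.34 to -0.28).

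All 3 receiver classes together made up 9.08%, 12.7%, 7.28% and 14.7% of the 4 libraries. Mast-like cells had 0 UMIs of both receptors in 620 cells, which by the binomial interval allows up to 0.593% of cells with a UMI at a median of 6343 UMIs per cell, and sets no limit on cells that express them below detection. Plasma cell-like cells held a Ccr7 UMI in 1.70% of cells, against 73.7% of B cell-like cells, whose depth was several times lower.

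The dendritic-like class was not uniform. When its cells were clustered again, subcluster 1 with 59 cells raised all 7 markers of mature dendritic cells, which have taken up antigen and move to lymph nodes. Ccr7 stood there at 2729, 2941, 3242 and 3046 CPM and was found in 100% of the cells. Subcluster 2 with 50 cells, led by Itgae and Xcr1 of cross-presenting dendritic cells, had 1.79 CPM. Subcluster 0, with Cd209a and Mgl2, had 476 CPM in 50.0% of its 62 cells, and the plasmacytoid-like subcluster 4, with Siglech and Ccr9, had 199 CPM.

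**Figure D5:**
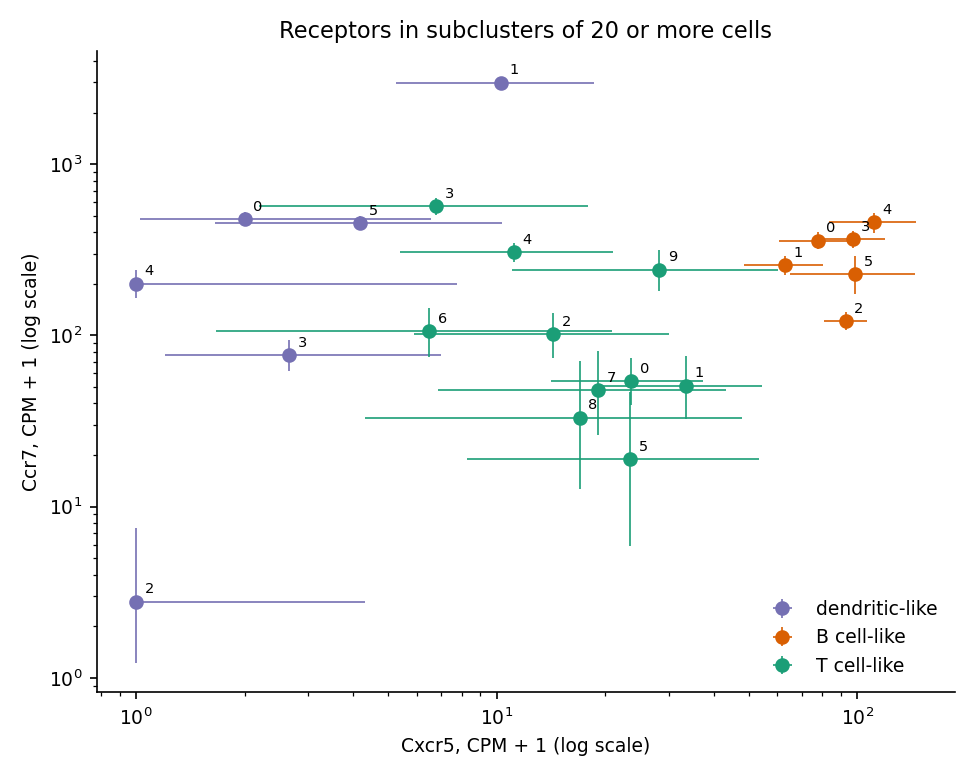
Cxcr5 against Ccr7 (CPM + 1, both axes on a log scale) in subclusters of at least 20 B cell-like, T cell-like and dendritic-like cells, with 95% Poisson bars. B subclusters lie high on both axes, the mature dendritic subcluster lies at the top, and T subclusters spread over more than 10-fold in Ccr7.

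B subclusters all carried both receptors. Subcluster 2, with 164 cells and led by genes that include Zbtb32, had the lowest Ccr7, at 108, 162, 115 and 105 CPM, whereas the others stood between 226 and 456 CPM over all libraries. Its Cxcr5 was 91.9 CPM, inside the range of 61.9 to 110 CPM of the others. It also had little Cr2 (5.32 CPM) and Fcer2a (3.10 CPM), and carried Bhlhe41, a factor of innate-like B-1 cells, at 89.2 CPM. Subclusters 0, 3 and 4 came almost wholly from the Tom- libraries (1, 72, 1 and 108 cells in subcluster 0) and subcluster 1 from the Tom+ libraries (124, 2, 42 and 3 cells). The leading genes of subcluster 1 included tdTomato, Slpi, Ccl8, Ly6c2, Tpsb2 and Cma1, and it raised 4 of 6 mast cell markers. Tpsb2 and Cma1 are genes of mast cells, and the part of RNA from other cells in this division was not tested. For subclusters 0, 1, 3 and 4 subcluster and sort cannot be told apart. The Tom ratios of Cxcr5 and Ccr7 in B cell-like cells therefore compare different subclusters.

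Both receptors were seen together in 232 of 772 B cell-like cells. A Ccr7 UMI was found in 72.5% of the cells with a Cxcr5 UMI and in 74.6% of those without, at median depths of 6868 and 5317 UMIs, so a UMI of one receptor made little difference to the share with the other. In T cell-like cells 22 of 632 had both.

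T subclusters differed most in Ccr7. Subcluster 3 carried Lef1, a transcription factor of naive T cells, at 607 CPM, and had the highest Ccr7, 566 CPM in 80.3% of its 76 cells, with Cxcr5 at 5.80 CPM. Subclusters 0 and 2, both led by Gzmk and with Cd8a at 302 and 158 CPM, had Ccr7 at 53.2 and 100 CPM. Gzmk was also a leading gene of subcluster 5, where Cd4 (332 CPM) stood above Cd8a (26.9 CPM). The leading genes of subcluster 2 included Mzb1 and Txndc5 of plasma cells, and it raised 3 of 6 mast cell markers. The part of RNA from other cells in that subcluster was not tested. Subcluster 0 was almost wholly from the Tom- libraries (1, 45, 1 and 76 cells) and subcluster 2 from the Tom+ libraries (50, 0, 28 and 2 cells), as were subclusters 6 and 8, while subclusters 1 and 4 were mainly from Tom- libraries. As in B cell-like cells, subcluster and sort cannot be told apart there or in the Tom ratios of Ccr7. The regulatory subcluster 7, with Foxp3 at 315 CPM, had 47.0 CPM.

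The T cell-like cells were also divided by their Cd4 and Cd8 transcripts. Cells with Cd8a or Cd8b1 and no Cd4 had Ccr7 at 249 CPM in 46.5% of cells, and cells with Cd4 and neither Cd8 gene had 111 CPM in 15.1%. Cxcr5 was 13.4 (8.81 to 19.5) and 25.1 (17.1 to 35.4) CPM in these groups, with overlapping intervals.

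Genes of follicular helper T cells were read in subcluster 9. Its 29 cells, with Il21 at 109 CPM and Pdcd1 at 77.2 CPM, had Cxcr5 at 27.2 (10.0 to 59.3) CPM from 6 UMIs. Subcluster 1 had 32.5 (18.2 to 53.5) CPM from 15 UMIs. These intervals overlap widely, and so few UMIs cannot order the subclusters.

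The pathway list was read over all cells and in the leading classes. Of its 35 genes 32 had enough UMIs, and 1 (Tnfrsf13c, the BAFF receptor of B cells) was at least 2-fold higher in Tom+ in both pairs, while 12 and 13 were at least 2-fold lower, beside 8.91% and 7.63% of all genes higher and 24.2% and 24.0% lower. Within B cell-like cells Tnfrsf13c was lower in Tom+ in both pairs, at 129, 169, 101 and 156 CPM, and its second class was plasma cell-like cells, at 66.5 CPM. The median log2 ratios were -0.51 and -0.65, beside -0.44 and -0.47 over all genes. Among those lower in both pairs were Cxcl12, Vcam1, Pdpn and Il33, whose leading or second class was the progenitor-like class, cluster 8 or mesothelial-like cells.

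In cluster 8 the list genes with the highest level were Pdpn, the podoplanin of lymphoid stroma, at 376 CPM, Vcam1 at 274 CPM, Aldh1a2, which makes retinoic acid, at 207 CPM, and Cxcl12 at 201 CPM. In the progenitor-like class Cxcl12 stood at 1228 CPM and Vcam1 at 301 CPM. Lymphatic endothelial-like cells carried S1pr1 at 445 CPM and Il7, a survival factor of lymphocytes, at 118 CPM. Ltb, which encodes the membrane anchor of lymphotoxin, was highest in gamma-delta T-like cells at 537 CPM and in T cell-like cells at 282 CPM.

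The genes whose level over 28 clusters of 50 or more cells was most like each member, by Pearson r of log2(CPM + 5) among 10112 genes, are given as a description, since the clusters share libraries. For Cxcl13 they were Chl1 and Cxcl5 (r = 0.89 each), Saa3 (0.85), Gdpd2 (0.81) and Fgfr2 (0.80). For Ccl19 they were Plppr3, Kng2, Fgf7, Mrap and Sfrp1 (0.96 to 0.94). For Ccl21a Mmrn1 came first, and for Cxcr5 Zbtb32 and Pax5 (0.91 and 0.90). Among the 5 genes themselves, Cxcr5 and Ccr7 had r = 0.75, and Cxcl13 and Ccl19 had 0.32.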

How the data were processed

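The 4 libraries of single cells (10x Genomics 3′ chemistry v3.1) were read from the deposited raw UMI counts per gene and barcode, which the authors made with Cell Ranger 3.0.2 on mm10. As in the study's filter, kept barcodes had more than 1000 and fewer than 7000 genes, and mitochondrial genes gave less than 8% of their UMIs. Scrublet scores removed 0.8% of cells per 1000 that passed (137, 130, 31 and 186 cells). The rate over all barcodes was replaced after it was seen to remove nearly all lymphatic cells of the Tom- libraries, and is an alternative. Cells were scaled to 10000 UMIs, and 2000 variable genes, 30 components, 15 neighbours and Leiden resolution 1 gave the clusters (scanpy 1.11.5). A marker was raised at 20 CPM and 4 times the median cluster, and a name needed 3 raised markers. Named genes are the members, the pathway list (up to 10 named, by level in each leading class), the 5 genes most like each member, subset genes, and leading genes of clusters. Scripts were tested on simulated data. The members and lists were chosen with earlier results of these data known.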

Additional observations from a re-analysis of the deposited data

Results flagged for a closer look

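The Tom+ over Tom- log2 ratio of Cxcl13 in cluster 8 had opposite signs in the 2 pairs of libraries, 0.50 in the CD45- pair and -0.42 in the CD45+ pair. The difference between the pairs was not tested, since each has 1 library per arm.

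Barcodes with fewer than 500 genes were outside every comparison above. In the CD45- Tom- library 3762 such barcodes carried Cxcl13 at 239 CPM and Ccl21a at 22.5 CPM, against 156 and 12.7 CPM in the kept cells of that library. In the CD45+ Tom- library 2949 such barcodes went the other way, with Cxcl13 at 209 CPM and Ccl21a at 26.7 CPM, against 244 and 49.4 CPM in its kept cells.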

How the results depend on the processing

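Of 168 alternative values of the log2 ratios, 158 kept the sign of the value reported. Many moved in size. For the main ratios, shares and counts, 95 alternatives were called the same, 56 fell outside the counting interval of the reported value and 1 reversed. For the remaining values these numbers were 34, 28 and 8. No paired analysis was possible because the labels carry no replicate numbers and no value here comes from a test, and with 1 library per sort none was left out. Values are given as CD45- pair, then CD45+ pair, and unless said otherwise the cause was not tested. Counting error was widest for Cxcr5 in T cell-like cells and for Ccl19 in the Tom+ libraries.

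The looser filter of 500 genes and 20% mitochondrial UMIs gave Cxcl13 in cluster 8 as 0.93 and a reversed 0.69, Cxcl13 over all cells as -0.51 in the CD45+ pair, Ccl19 as -2.67 in the CD45- pair and Ccl21a as 4.88 and 2.80. It put 70.3% of Cxcl13 UMIs in cluster 8, 97.3% of Ccl21a in the lymphatic class and 52.4% of Ccr7 in the dendritic-like class. Thinning every cell to 2000 UMIs gave over all cells -0.22 and -0.49 for Cxcl13, -2.82 and -3.57 for Ccl19, 4.90 and 2.97 for Ccl21a and -1.38 for Ccr7 in the CD45+ pair. Within classes it gave 0.32 and -0.31 for Cxcl13 in cluster 8, -1.37 and -1.17 for Ccl19 in the progenitor-like class and -1.03 for Ccr7 in B cell-like cells of the CD45- pair. With every cell weighing the same, Cxcl13 was -0.22 and -0.52 over all cells and 0.32 and -0.35 in cluster 8, Ccl21a was 4.63 and 2.96, and Ccr7 was -0.95 and -1.46.

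The larger doublet share, added after seeing the data, gave 8.19 and 8.40 for Ccl21a because it removed the lymphatic cells of the Tom- libraries. It gave Cxcl13 as -0.37 and -0.78 over all cells and as 0.41 and -0.26 in cluster 8, and leading shares of 83.5% (Cxcl13), 68.9% (Cxcr5), 96.6% (Ccl19), 98.7% (Ccl21a) and 56.0% (Ccr7). With marked doublets kept, these shares were 80.0% for Cxcl13, 90.3% for Ccl19, 97.6% for Ccl21a and 55.8% for Ccr7. Leaving out the cell with most Cxcl13 in each library, also added after seeing the data, gave -0.26 and -0.87 over all cells and 0.40 and -0.57 in cluster 8.

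With 4000 variable genes Cxcl13 in cluster 8 was 0.55 and -0.32 with 79.8% of its UMIs there. At Leiden resolution 2 it was 0.44 and -0.64. With the members and the pathway list among the clustering genes it was 0.57 in the CD45- pair with 83.1% of its UMIs there, and both of these last settings put 96.7% of Ccl19 UMIs in the progenitor-like class.

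The ratio of Cxcl13 within the progenitor-like class reversed where the cells of cluster 23 joined that class, to 1.13 and 1.46 with the looser filter, 0.64 and 1.39 both at resolution 2 and with the members clustered, and 0.65 and 1.49 with the larger doublet share.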
